A study of Mus musculus with 12 samples.

Results

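The regions described here are the H3K4me3 peaks that were called in Min6 cells under JNK inhibition and had no counterpart in solvent. They were chosen by 1 rule, that a peak of the JNKi list shared not a single base with any peak of the DMSO list, and 1085 of 19032 JNKi H3K4me3 peaks met it (5.7%). The 4 peak lists of the study held 44996 peaks in all. Min6 is a mouse insulinoma line, here labelled as pancreatic β cells. Cells were exposed for 48 hours either to 20 µM SP600125, which blocks the kinases that phosphorylate cJun (JNK inhibition, JNKi), or to DMSO, the solvent, as control. CUT&RUN, in which an antibody-tethered nuclease releases the DNA it is bound near, was run on 550000 cells per reaction with IgG, cJun or H3K4me3 antibodies, giving 12 samples in 6 groups of 2 biological replicates. The H3K4me3 antibody was the positive control of the assay. Each list holds peaks found in both replicates of its group, so a region called in only 1 DMSO replicate counts here as absent from DMSO. No genotype or transgene is given for the line.

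H3K4me3, trimethylation of lysine 4 of histone H3, is laid down by SET1 and MLL methyltransferases and is strongest just downstream of transcription start sites (TSS) of genes with CpG-rich promoters. Weaker, narrower H3K4me3 occurs at other promoters and at some enhancers. JNK is a stress-activated kinase whose best known substrate is cJun, a subunit of the transcription factor AP-1, which binds the site TGACTCA or TGAGTCA, and SP600125 blocks the ATP pocket of JNK.

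The following 201-base windows, centred on the peak summit, show the kinds of sequence found among JNKi-only peaks (RefSeq copy of GRCm38, plus strand). The first 3 carry an AP-1 site, printed in capitals, and the H3K4me3 peaks in Mast4 and Rapgef1 were overlapped by cJun peaks of both treatments, at any point of their span. Slc2a2 was named by the gene lists and Mast4 by its rank among peaks with cJun. Rapgef1 was chosen after its values were seen.
Slc2a2 upstream, chr3:28695076-28695276: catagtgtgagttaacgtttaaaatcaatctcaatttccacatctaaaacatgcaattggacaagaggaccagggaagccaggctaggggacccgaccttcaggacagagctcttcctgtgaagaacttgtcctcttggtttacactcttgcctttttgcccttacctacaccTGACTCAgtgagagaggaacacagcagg
Mast4 intron, chr13:103109838-103110038: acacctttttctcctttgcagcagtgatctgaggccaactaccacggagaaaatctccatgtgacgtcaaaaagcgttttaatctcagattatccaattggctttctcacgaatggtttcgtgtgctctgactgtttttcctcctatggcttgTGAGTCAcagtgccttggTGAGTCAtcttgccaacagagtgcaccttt
Rapgef1 intron, chr2:29624815-29625015: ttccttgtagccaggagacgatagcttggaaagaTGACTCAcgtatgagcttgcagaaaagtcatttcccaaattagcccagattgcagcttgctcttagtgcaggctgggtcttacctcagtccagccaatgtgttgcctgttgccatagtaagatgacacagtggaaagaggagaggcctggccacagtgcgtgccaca
In the next 5 windows every CG dinucleotide is in capitals, to show the CpG-richer end of the JNKi-only peaks, since the 4 JNKi-only windows among them all lie above the upper quartile of their set in CpG ratio (observed over expected, 0.476). Trmt12 upstream is the highest-ranked JNKi-only peak, Tmem45a lies at a promoter with no other H3K4me3 peak, Tal1 and Prdm8 were chosen after their values were seen, and the last is the highest-ranked peak shared with DMSO, for comparison.
Trmt12 upstream, chr15:58869986-58870186: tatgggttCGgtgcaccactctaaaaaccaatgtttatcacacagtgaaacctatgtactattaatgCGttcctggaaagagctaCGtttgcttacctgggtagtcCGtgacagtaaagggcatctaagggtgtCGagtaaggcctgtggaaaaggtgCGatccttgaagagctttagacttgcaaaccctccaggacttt
Tmem45a promoter, chr16:56886290-56886490: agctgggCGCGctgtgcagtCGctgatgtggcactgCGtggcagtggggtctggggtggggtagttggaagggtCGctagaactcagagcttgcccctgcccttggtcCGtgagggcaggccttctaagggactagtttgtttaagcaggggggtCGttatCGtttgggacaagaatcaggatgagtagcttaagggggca
Tal1 promoter, chr4:115057072-115057272: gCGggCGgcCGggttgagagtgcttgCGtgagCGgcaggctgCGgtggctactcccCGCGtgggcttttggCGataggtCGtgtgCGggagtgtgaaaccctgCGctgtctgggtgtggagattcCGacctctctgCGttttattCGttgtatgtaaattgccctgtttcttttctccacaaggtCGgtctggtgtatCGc
Prdm8 promoter, chr5:98167419-98167619: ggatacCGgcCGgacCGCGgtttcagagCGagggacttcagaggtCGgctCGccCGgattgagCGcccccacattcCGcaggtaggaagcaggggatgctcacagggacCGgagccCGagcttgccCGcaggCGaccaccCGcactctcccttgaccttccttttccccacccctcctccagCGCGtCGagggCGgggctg
Shared peak of rank 1, near Phf23, chr11:69996333-69996533: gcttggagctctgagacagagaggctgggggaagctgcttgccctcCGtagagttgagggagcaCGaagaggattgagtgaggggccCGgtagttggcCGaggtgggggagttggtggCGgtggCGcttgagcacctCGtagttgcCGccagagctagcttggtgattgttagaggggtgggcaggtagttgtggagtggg

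The Slc2a2 site started 73 bases after the summit, the Rapgef1 site 66 bases before it, and the Mast4 window held 2 sites, the first 53 bases after the summit. The CG dinucleotides numbered 6 in the Trmt12 window, 8 in Tmem45a, 17 in Tal1, 19 in Prdm8 and 8 in the shared peak.

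JNKi-only peaks were weak and narrow. The lists give each peak a −log10 p, the strength of its signal over IgG, in both replicates, and rank it by the lower value. The highest JNKi-only peak held rank 12232 of 19032, so the upper part of the list held none. Cutting the list into 10 parts of equal length, the lowest part contained 661 of them, the next 327, the one above 87 and the fourth 10, and the 6 parts at the top contained 0. Rank is not independent of the rule, which used the calls of the same antibody, and these values are given as a description. The 1279 DMSO-only peaks, chosen by the same rule in the other direction (6.6% of 19372), lay as low in their own list, with 92.6% in its lowest 20% against 91.1% of the JNKi-only peaks. For this reason JNKi-only peaks are set below beside 2818 shared JNKi peaks from the lowest 20% of the list, called low-ranked shared peaks, although those still ranked somewhat higher (median percentile 11.2 against 7.73).

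In the first replicate column the −log10 p of JNKi-only peaks ran from 3.02 through a median of 8.48 to 55.5. In the second it ran from 3.02 through 6.86 to 37.4. Shared JNKi peaks had medians of 188 and 138. The first column was the higher for 67.8% of JNKi-only peaks, for 83.1% of shared peaks and for 77.1% of low-ranked shared peaks. The ratio of the higher to the lower replicate had a median of 1.45, against 1.26 for all shared and 1.39 for DMSO-only peaks. It was 1.84 for low-ranked shared peaks, which were chosen on the lower replicate value. The replicate summits lay within 200 bp of each other at 902 JNKi-only peaks (83.1%), 78.3% of DMSO-only, 79.6% of shared and 66.1% of low-ranked shared peaks. Since a listed peak joins overlapping peaks of both replicates, the narrow width of JNKi-only peaks limits how far apart their summits can be.

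**Figure D1:**
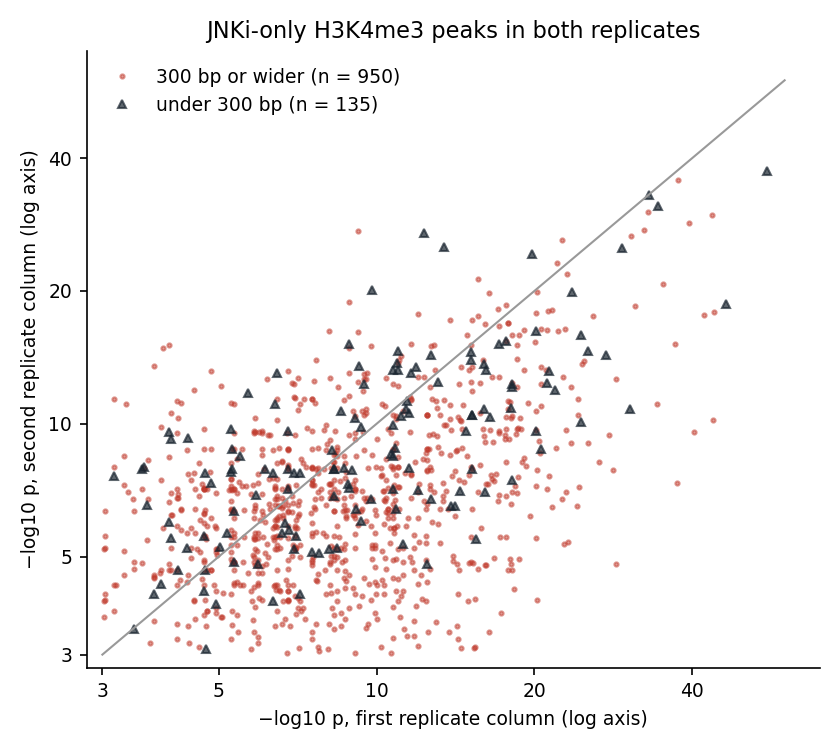
Each point is 1 of the 1085 JNKi-only peaks, with its −log10 p in the first replicate column (x, log axis) and the second (y, log axis); the grey line marks equality and triangles mark the 135 peaks under 300 bp. Most points lie below the line and under a value of 20, and narrow peaks are found along the whole range.

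The irreproducible discovery rate (IDR), an estimate of the share of peaks that would not replicate, was at most 0.05 for 67 JNKi-only peaks and at most 0.01 for 33. The IDR was at its largest value, 0.2818, for 956 of them. An IDR of at most 0.05 was reached by 6.18% of JNKi-only peaks (95% Wilson interval 4.89 to 7.77), beside 75.6% of all JNKi peaks and 2.42% of DMSO-only peaks. Of the JNKi-only peaks that reached it, 54 were among the 97 above the lowest 20% of the list. Within the lowest 20%, 13 of 988 JNKi-only peaks reached it (1.32%, 0.771 to 2.24) and 3.34% of low-ranked shared peaks (2.73 to 4.06). Among the 100 highest JNKi H3K4me3 peaks, 95 also had an IDR over 0.05, so the IDR does not order peaks by strength in this list. The 5 JNKi-only peaks just within an IDR of 0.05 (0.0455 to 0.0495) had −log10 p from 9.61 to 15.9, and the 5 just over it (0.0501 to 0.0556) from 9.68 to 10.4, so these neighbours hardly differed in strength. Here and below, intervals cover counting error over peaks only. No peak is a replicate of its treatment, and the 1 list per treatment allows no test between treatments.

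The median width was 478 bp, against 2017 bp for shared peaks, 758 bp for low-ranked shared peaks and 498 bp for DMSO-only peaks. A width under 300 bp was recorded for 135 JNKi-only peaks (12.4%, interval 10.6 to 14.5) and for 1.99% of low-ranked shared peaks. Of the 67 JNKi-only peaks with an IDR of at most 0.05, 21 were that narrow, and of the 20 highest, 7 were. The widest JNKi-only peak, of 1701 bp at chr19:53394516-53396216 near AC133451.1, was followed by peaks in introns of Tnpo1 (1679 bp) and Cbfb (1582 bp). Tnpo1 encodes an importer of nuclear proteins, and Cbfb the partner subunit of RUNX factors.

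At the edge of the rule stood peaks that only just missed a DMSO peak. The closest, at chr12:81226222-81227141 near Gm3693, was 35 bp from one and had a −log10 p of 4.86. The next were 37 bp away (chr5:100043436-100044109, Enoph1, −log10 p 5.54) and 48 bp away (chr3:28695046-28695274, Slc2a2, 5.02). Just outside the rule were peaks overlapping a DMSO peak by 107, 122 and 123 bp, with values of 11.7, 4.89 and 4.70. A DMSO peak lay within 1 kb of 129 JNKi-only peaks.

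Over the whole list, the share of JNKi-only peaks at promoters was below that of each comparison set, and none of these differences was tested. The order turned for the weak sets when only peaks with an IDR of at most 0.05 were taken, with 34.3% of 67 JNKi-only, 30.9% of 94 low-ranked shared and 32.3% of 31 DMSO-only peaks at promoters. A peak was called promoter when its midpoint was within 3 kb of a TSS, and otherwise exon, intron or intergenic. Promoters held 278 JNKi-only peaks (25.6%, interval 23.1 to 28.3) beside 71.8% of all JNKi peaks, introns 455 (41.9%, 39.0 to 44.9) beside 13.8%, intergenic sequence 318 (29.3%, 26.7 to 32.1) beside 12.6%, and exons 34 (3.13%) beside 1.91%. Of the weak comparison sets, 41.8% of low-ranked shared peaks (39.99 to 43.6) and 33.7% of DMSO-only peaks (31.2 to 36.3) were at promoters. Within the lowest 20% alone, 251 of 988 JNKi-only peaks were at promoters (25.4%). Closer to the TSS the order was the same, as 11.5% of JNKi-only peaks, 20.5% of DMSO-only peaks and 29.0% of low-ranked shared peaks had their midpoint within 1 kb.

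**Figure D2:**
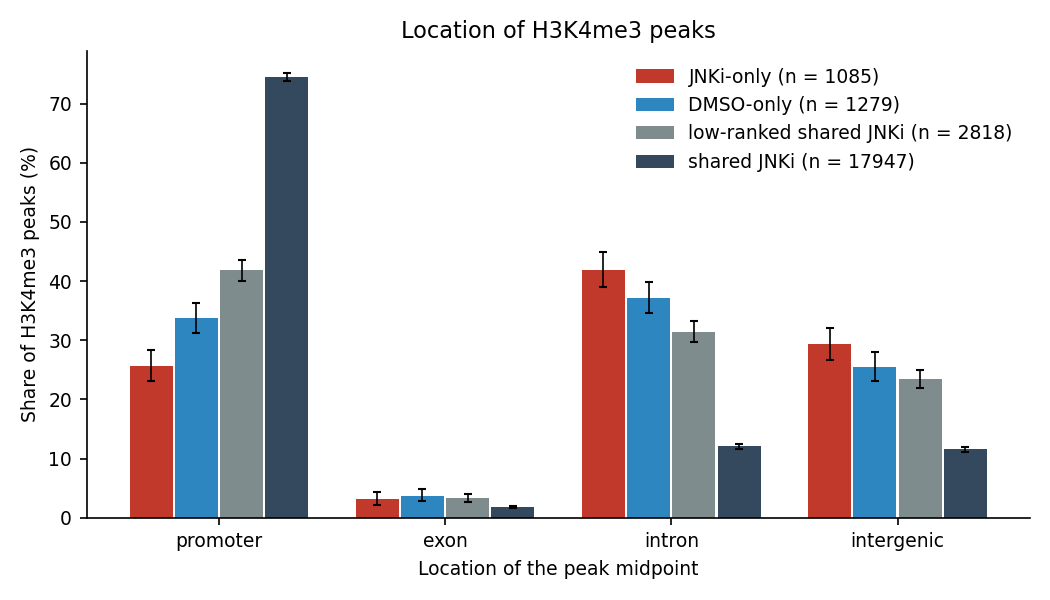
Bars give the share of H3K4me3 peaks (y, %) by location of the midpoint (x) in 4 sets, and lines the 95% Wilson interval over peaks. Promoters hold 25.6% of JNKi-only and 74.5% of shared JNKi peaks, and introns 41.9% and 12.1%.

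Even those at promoters stood away from the start. Their median distance to the TSS was 1256.5 bp, compared with 356 bp for shared promoter peaks, 476 bp for low-ranked ones and 545 bp for DMSO-only ones. Within 1 kb of a TSS, 82 midpoints were downstream and 43 upstream (65.6% downstream), close to the 67.3% of low-ranked shared and 62.6% of DMSO-only peaks, while 79.6% of all shared peaks were downstream. Between 1 and 3 kb the counts were 85 and 68. Intronic and intergenic JNKi-only peaks had median distances of 10493 and 13011.5 bp. The nearest TSS belonged to a processed pseudogene at 138 JNKi-only peaks (12.7%, interval 10.9 to 14.8), to be set beside 7.95% (7.01 to 9.01) of low-ranked shared peaks and 7.58% (6.26 to 9.17) of DMSO-only peaks.

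Some JNKi-only peaks flanked shared peaks and others stood alone. The nearest shared JNKi peak was a median of 12674 bp away (quartiles 3410 and 40281, lowest 23, highest 1934411). It was within 1 kb for 120 JNKi-only peaks, from 1 to 5 kb for 226, from 5 to 10 kb for 146, from 10 to 50 kb for 362, from 50 to 100 kb for 121, and farther for 110. Within 1 kb the share was 11.1%, beside 10.9% of low-ranked shared and 6.63% of all JNKi peaks, and beyond 100 kb it was 10.1%, beside 14.7% and 12.5%. Of the 346 within 5 kb, 267 had a promoter peak as that neighbour (77.2%), and the neighbours had a median width of 2554 bp. Beyond 5 kb the share was 76.7%, and 74.5% of all shared peaks were promoter peaks, so the neighbours were mostly promoter peaks at either distance. The median distance was 17155.5 bp for low-ranked shared peaks, measured to the next shared peak, and 16244 bp for DMSO-only peaks, measured to shared peaks of the DMSO list.

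**Figure D3:**
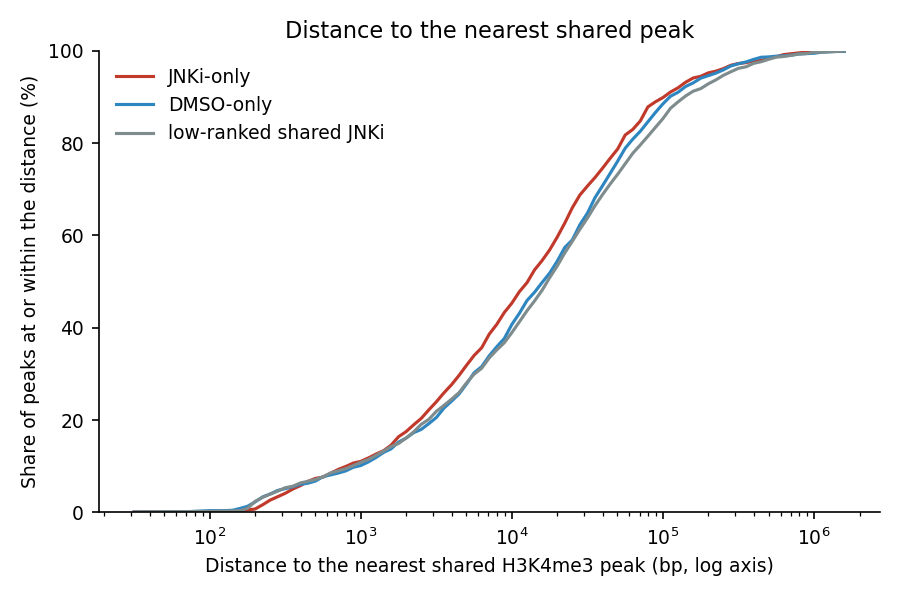
Lines give the share of peaks (y, %) at or within a distance (x, bp, log axis) of the nearest shared H3K4me3 peak. The JNKi-only line runs above both others from 1000 to 316228 bp. The medians are 12674, 16244 and 17155.5 bp for JNKi-only, DMSO-only and low-ranked shared peaks.

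The most isolated JNKi-only peak lay at chr10:47514012-47514350, with −log10 p of 4.89 and 4.31. The other peaks farthest from shared ones were at chr1:142589759-142590324, chr1:47853862-47854281 and a pair at chr2:133843057-133843445 and chr2:133844081-133844462. In the first of these all 14 of the 32-base words taken from the summit window occur more than once in the genome, and in each of the pair 10 of 14 do, so the position of reads there is uncertain. Every word was repeated at 5 JNKi-only peaks in all. The summit window was mostly soft-masked repeat at 7.097% of JNKi-only peaks (5.72 to 8.78) and at 3.16% of low-ranked shared peaks (2.57 to 3.87).

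Another JNKi-only peak was within 10 kb of 55 of them (5.07%), in 26 groups, and 5.47% of DMSO-only peaks had another DMSO-only peak that near. The largest JNKi-only group held 4 peaks over chr11:113666689-113676996 at Fam104a and Gm11693. Per chromosome, they made up from 4.16% of JNKi peaks on chromosome 16 to 7.32% on chromosome 17, apart from chromosome Y, where 1 of 2 peaks was JNKi-only.

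The 20 highest JNKi-only peaks were spread over 7 promoters, 5 introns, 7 intergenic sites and 1 exon, and 19 had an IDR of at most 0.05. The first column was the higher in 17. The highest, at chr15:58870012-58870200, was 189 bp wide and 2568 bp upstream of Trmt12, a gene for a tRNA-modifying enzyme, with −log10 p of 55.5 and 37.4. Next came chr5:24266359-24267030 near the pseudogene Gm9836 (37.6 and 35.6). Both stood above the JNKi-only medians in each column, which follows from ranking by the lower replicate value. The intron of Igsf9, which encodes an immunoglobulin-superfamily adhesion protein of neurons, held chr1:172490159-172490810 with 39.4 and 28.4. Mfsd2a, the transporter of lysophosphatidylcholine carrying docosahexaenoic acid, held chr4:122955162-122955861 in an intron, with 30.5 and 26.6 and cJun peaks of both treatments. Khdrbs2, an RNA-binding protein gene, had a peak 2140 bp downstream of its start with 22.1 and 23.1, only 431 bp from a shared peak. The last of the 20, in an exon of Rsad1, had 21.6 and 18.1.

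A JNKi-only peak was found within 3 kb of a TSS of 202 of 21938 protein-coding genes (0.921%). Of these genes, 121 also had a shared peak within 3 kb of the same or another of their TSS. For 80 genes (0.365% of all) no shared or DMSO-only peak lay within 3 kb of any of their TSS. At 27 of these a JNKi-only peak covered a TSS. The remaining gene had a DMSO-only peak as well. A shared JNKi peak marked 12981 genes (59.2%). In the other direction, 345 genes had a DMSO-only peak, and 202 of them had no shared or JNKi-only one.

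Among the 12 of these genes with the highest peaks, Tmem45a, a transmembrane protein gene, was the clearest case at a start site. Its peak at chr16:56886014-56886653 covered the TSS, had −log10 p of 19.1 and 16.3, and was 167400 bp from the nearest shared peak. The TSS of the antisense gene Gm15839 was nearer to the peak midpoint (33 bp) than that of Tmem45a (168 bp). The peak cannot be credited to Tmem45a alone. Cnmd, encoding the cartilage protein chondromodulin, had a peak 1056 bp into the gene with 18.5 and 15.1. Gpr183, an oxysterol-sensing receptor known from lymphocytes, had a peak 328 bp downstream of its start with 19.1 and 13.3. These genes were picked by the lower replicate value, so high values in both columns follow from the choice. Akr1cl (15.2 and 11.9) and Gm3285 (24.3 and 11.4) had peaks 2831 bp upstream and 2848 bp downstream of their starts. The value for Gm1604a (33.1 and 32.9) is uncertain, since 12 of the 14 words of its window are repeated in the genome. The same count was found in the windows near the histone genes Hist1h2ap, Hist1h2br and Hist1h4n, which share 1 peak of 236 bp (16.04 and 13.6), and near Hist1h2ao, Hist1h2bq and Hist1h4m, which share another of 294 bp (13.5 and 25.1). These replication-dependent histone genes exist in near-identical copies, so neither peak can be placed on 1 copy with certainty.

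Several other genes among the 80, chosen after their values were seen, are known regulators or channel genes. Tal1, a haematopoietic transcription factor, had a peak with −log10 p of 10.8 and 7.99, and Prdm8, a zinc-finger repressor, had one with 18.6 and 7.59. Kcnk16, the potassium channel TALK-1 of islet β cells, had a peak over its TSS with 5.57 and 4.86. Tgfb2, a growth factor gene, had 8.30 and 3.70. These are near the lower end of the list, with ranks from 16538 to 18832 of 19032.

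Few genes of the lists chosen for these cells had a JNKi-only peak, as was the case for genes in general. Of 362 listed genes found in the annotation, each counted once, 6 had a JNKi-only peak within 3 kb of a TSS (1.66%), beside 0.921% of all protein-coding genes. A DMSO-only peak was found at 11, beside 1.57% of all protein-coding genes, and a shared one at 247 (68.2%), beside 59.2%. Slc2a2 and Abcc8, from the list of 28 β-cell genes, were among the 6 with a JNKi-only peak. Slc2a2, the glucose transporter GLUT2, had the peak shown above, 2743 bp upstream with −log10 p of 5.02 and 5.25. Abcc8, the sulfonylurea receptor of the ATP-sensitive potassium channel, had one 1779 bp upstream with 13.4 and 6.87. These genes also had shared H3K4me3, 235 bp from the peak of Slc2a2 and 765 bp from that of Abcc8. The islet amyloid gene Iapp had the nearest TSS to the fourth widest JNKi-only peak, of 1514 bp in an intron of Slco1a5, 6599 bp downstream of the Iapp start, with 14.0 and 4.89 and a shared peak 299 bp away.

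Of 25 JNK pathway genes, only Mapk9, which encodes JNK2, one of the kinases SP600125 inhibits, had a JNKi-only peak (6.04 and 6.95, 407 bp from a shared peak), and all 25 had a shared peak. Parp3, from the genes disallowed in β cells, had one 1838 bp downstream of its start (11.9 and 13.5). Shh, a patterning ligand, had one 2571 bp upstream (12.7 and 14.4). The peaks of Slc2a2, Abcc8, Mapk9, Parp3 and Shh each had an IDR of 0.2818. None of the 16 AP-1 subunits, 22 immediate early genes, 23 cell-cycle drivers, 21 unfolded protein response genes, 21 inflammatory genes or 18 targets of the aryl hydrocarbon receptor and Nrf2 had a JNKi-only peak, whereas 13, 22, 23, 21, 9 and 12 of them had a shared one. The other lists without one were other islet hormone cells, acinar, duct, neuronal and synaptic genes, p53 targets, and the markers of mesenchymal, endothelial and leukocyte cells. The β-cell list had the highest count, 3 of 28 genes (10.7%), and each other list had 0 or 1. With most lists under 30 genes these are small numbers, and no difference between lists was tested. Cck, the hormone gene the study followed, had 0 JNKi-only peaks within 50 kb and 2 shared ones, and the nearest JNKi-only peak was 81120 bp away.

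As a check of the label, 7 of 8 β-cell markers had an H3K4me3 peak in the JNKi list and in the DMSO list, the exception in both being Ins1. No peak was found at the 4 acinar, 2 delta-cell, 2 endothelial or 1 leukocyte markers, and 1 of 4 duct, 2 of 3 alpha-cell and 1 of 2 mesenchymal markers had one. In the longer gene lists, 6 of 10 duct and 3 of 18 acinar genes had a shared peak, beside 59.2% of all protein-coding genes. H3K4me3 was thus not limited to β-cell genes.

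The overlap of JNKi-only peaks with cJun was close to that of all JNKi H3K4me3 peaks in the JNKi cJun list and lower than theirs in the DMSO cJun list. Neither difference was tested. A cJun peak of the JNKi list overlapped 58 JNKi-only peaks (5.35%, interval 4.16 to 6.85), beside 4.61% of all JNKi H3K4me3 peaks, 4.54% of low-ranked shared peaks (3.83 to 5.37) and 2.42% of DMSO-only peaks (1.71 to 3.42). A DMSO cJun peak overlapped 98 (9.03%, 7.47 to 10.9), beside 12.5% of all, 12.8% of the low-ranked shared (11.6 to 14.1) and 11.2% of DMSO-only peaks (9.57 to 13.0). At an IDR of at most 0.05, 4.48% of 67 JNKi-only peaks overlapped a JNKi cJun peak. The share was 6.38% of 94 low-ranked shared and 4.59% of all shared peaks, so this order turned. A DMSO cJun peak then overlapped 2.99%, 12.8% and 12.7% of the same sets. The cJun lists differ in length, with 1632 peaks under JNKi and 4960 in DMSO, so shares are comparable within a list and not between lists. Both lists had a cJun peak at 44 JNKi-only peaks (4.06%, beside 3.22% of all JNKi peaks), and JNKi alone at 14 (1.29% beside 1.40%). DMSO alone had one at 54 (4.98% beside 9.33%), and neither list at 973 (89.7% beside 86.1%). Of the 58 JNKi-only peaks with cJun under JNKi, 44 also had a DMSO cJun peak within their span. So did 95 of 128 low-ranked shared peaks and 612 of 878 of all JNKi peaks, so this was not particular to JNKi-only peaks.

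The cJun peaks over JNKi-only peaks had a median percentile of 62.0 in the JNKi cJun list (59 peaks, 7 with an IDR of at most 0.05) and of 57.4 in the DMSO list (98 peaks, 12 with such an IDR). Over shared H3K4me3 peaks the medians were 52.1 (847 peaks, 159 with such an IDR) and 50.3 (2518 peaks, 248 with such an IDR). These differences were not tested. The highest JNKi-only peak with cJun under JNKi was an intronic one in Nedd4l, a ubiquitin ligase gene (43.5 and 29.6), and it had no cJun peak in DMSO. Mfsd2a and Coro1c (37.0 and 15.2) followed, with cJun in both treatments. Mast4, a microtubule-associated kinase gene, held 2 such peaks in its introns, at chr13:103109654-103110053 (15.7 and 12.4) and chr13:102893925-102895159 (14.5 and 10.1), both with cJun in both treatments. Fank1, Arhgap8 and Bccip each held 1 in the gene body, with cJun under JNKi alone in Arhgap8 and Bccip. The promoter share of JNKi-only peaks with cJun under JNKi was 11 of 58 (18.97%), while 28.9% of low-ranked and 70.1% of all shared peaks with cJun were at promoters.

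**Figure D4:**
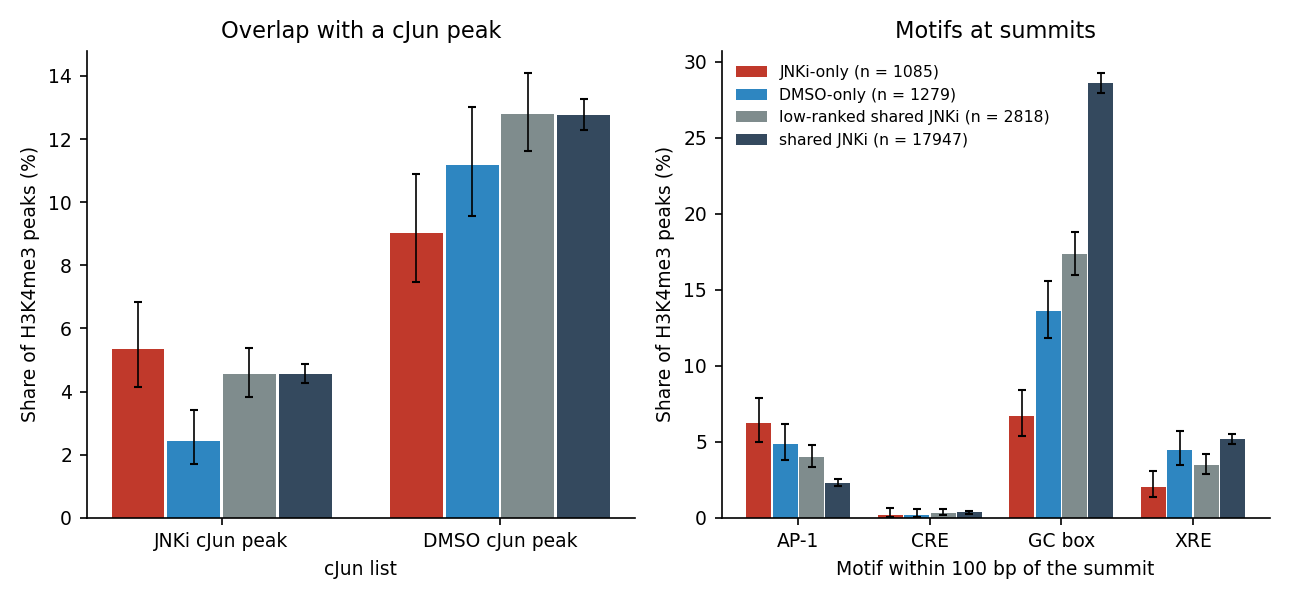
Bars give the share of H3K4me3 peaks (y, %) that overlap a cJun peak of either list (left) or hold a motif within 100 bp of the summit (right; XRE, xenobiotic response element), with 95% Wilson intervals over peaks. JNKi-only peaks show 5.35% and 9.03% for cJun, 6.27% for AP-1 sites and 6.73% for GC boxes.

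The share of summits with an AP-1 site was higher among JNKi-only peaks than among shared ones in windows of 100 bp each side, a difference that was not tested. TGACTCA or TGAGTCA, which are reverse complements of each other, was within 100 bp of 68 summits (6.27%, interval 4.97 to 7.87), beside 2.53% of all JNKi peaks in windows of the same length, 3.97% of low-ranked shared peaks (3.31 to 4.76) and 4.85% of DMSO-only peaks (3.80 to 6.17). Among intronic JNKi-only peaks the share was 8.35% (38 of 455), among intergenic ones 5.97% and among promoter ones 3.96%. In the low-ranked shared peaks the same shares were 5.87%, 4.70% and 2.21%. Within 50 bp the shares were closer, at 2.76% for JNKi-only, 2.66% for DMSO-only and 2.34% for low-ranked shared peaks. Over whole peaks the order changed, with 16.04%, 13.8% and 18.8% in these sets and 25.9% of all shared peaks, which are wider. Of the 67 JNKi-only peaks with an IDR of at most 0.05, only 1 had an AP-1 site at the summit (1.49%), and at that IDR the shares were 1.93% of all shared, 2.13% of 94 low-ranked shared and 6.45% of 31 DMSO-only peaks, each above that of JNKi-only peaks.

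The sites and cJun peaks coincided in part. An AP-1 site was at 9 of 58 JNKi-only peaks with cJun under JNKi (15.5%, interval 8.38 to 26.9), at 19 of 98 with cJun in DMSO (19.4%, 12.8 to 28.3) and at 48 of 973 with neither (4.93%, 3.74 to 6.48). Low-ranked shared peaks gave 9.38%, 6.65% and 3.47%. The 9 peaks with a site and cJun under JNKi, listed after their values were seen, lay in introns of Mast4, Shb, Rapgef1, Paqr5 and Depdc5, between genes near Parva, Lbx1 and March6, and at chr15:58746829-58747361. Shb and Rapgef1 encode signalling adaptor and exchange proteins. The Rapgef1 peak, whose site is printed above, had −log10 p of 7.63 and 11.1 and lay 2788 bp from a shared peak. All but the Parva peak also had cJun in DMSO.

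Motifs of CpG-rich promoters had low shares among JNKi-only summits. The GC box GGGCGG, bound by SP factors at CpG-rich promoters and searched on both strands, was at 73 summits (6.73%, interval 5.39 to 8.38), beside 27.3% of all JNKi peaks, 17.4% of the low-ranked shared and 13.6% of DMSO-only peaks. The xenobiotic response element TNGCGTG, bound by the aryl hydrocarbon receptor, of which SP600125 is a known ligand, was at 22 (2.03%, 1.34 to 3.05), beside 4.98% of all, 3.48% of the low-ranked shared and 4.46% of DMSO-only peaks. The cyclic AMP response element TGACGTCA was at 2, and 0.342% of all peaks held it. One of the 2 was the Mast4 peak printed above.

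The CpG content of JNKi-only peaks was low. The median GC content of the 201-base windows was 47.8% for JNKi-only peaks, 50.2% for DMSO-only, 51.2% for low-ranked shared and 59.2% for all shared peaks. The CpG observed over expected ratio, which is near 1 where CpG is not depleted, had a median of 0.322 (quartiles 0.183 and 0.476), against 0.385, 0.445 and 0.622 in the same sets. A few JNKi-only peaks were as CpG-rich as promoters, with 1.02 at Tal1 and 0.806 at Prdm8, while the highest one, near Trmt12, had 0.574. Those at Slc2a2 and Rapgef1 were lower, at 0.183 and 0.238.

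**Figure D5:**
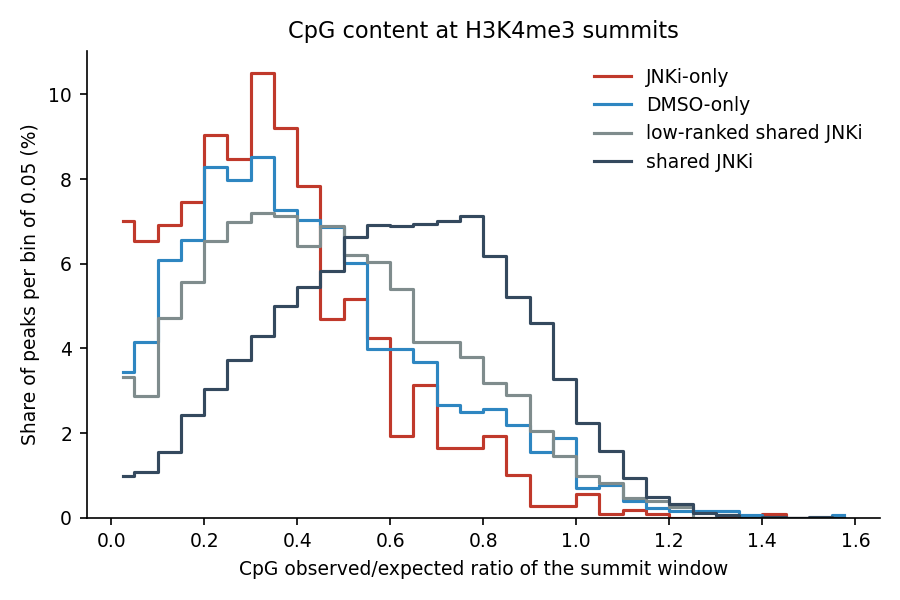
Lines give the share of peaks (y, %) per bin of 0.05 in the CpG observed over expected ratio of the 201-bp summit window (x). The JNKi-only distribution peaks near 0.3 with a median of 0.322, left of the shared JNKi peaks with a median of 0.622.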

How the data were processed

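CUT&RUN peak lists of 12 samples, grouped by their labels into 6 groups of 2, were used. The authors trimmed reads with Trimmomatic, aligned them to GRCm38 with Bowtie2 2.4.2, filtered with SAMtools 1.16, called narrow peaks against IgG with MACS2 2.2.7.1 and combined replicates by IDR (versions from the submitters' processing notes). Each deposited list gives the −log10 p-value of a merged peak, which the authors' IDR step set to the lower replicate value in 100% of peaks, and its span is the union of both replicate peaks. The deposited score column and the −log10 IDR, also a score, were made by the authors' IDR step and were not used for ranking. Other deposited columns (positions, summits) were taken as given. No list held a −log10 p below 3, which does not match the default cut-off the methods state. The labels state a depth of 30 M paired-end reads per sample. The usable depth of each sample and its local background are unknown, as only the peak lists were used.

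Overlaps needed 1 bp and were checked with bedtools 2.31.1. Annotation was GENCODE vM21 basic and sequence RefSeq GRCm38.p6. A midpoint within 3 kb of any of 77161 TSS positions was called promoter. Motifs were searched on both strands within 100 bp of the merged summit. Words of 32 bases, 14 per summit window, were counted in the whole genome by exact match. Shares carry 95% Wilson intervals, which cover counting error only. No test was made, since each treatment gave 1 list. The steps were tested on simulated data, where 400 of 400 planted overlaps and 200 of 200 planted motifs were recovered. Calculations ran in Python 3.11.15 (pandas 2.3.3, numpy 2.4.6, SciPy 1.17.1), with matplotlib 3.10.9 for plots.

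The regions, gene lists and comparisons were chosen with earlier results of these data known. Named were the 20 highest JNKi-only peaks and the 12 genes of highest peak with no shared or DMSO-only H3K4me3 peak. Also named were the 10 highest peaks with JNKi cJun, the 5 on each side of an IDR of 0.05 and the 5 widest. The 5 farthest from shared peaks, members of the gene lists and peaks within 50 kb of Cck were named too. Only those of interest to a comparison are described. A member of the gene lists is not reported here. Alternatives covered overlap, IDR, location, distance, motif window, width and summit.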

Additional observations from a re-analysis of the deposited data

How the results depend on the processing

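Of 76 alternatives over 16 results, 48 kept the value within the interval of the reported one, or within 1.5 times for a count, and 28 moved it. These values describe 1 set and have no direction to reverse. Of the orders between sets, that of promoter shares turned at an IDR of at most 0.05 (34.3% JNKi-only, 30.9% low-ranked shared, 32.3% DMSO-only) and that of AP-1 turned over whole peaks (16.04% JNKi-only, 18.8% low-ranked shared, 25.9% all shared) and at an IDR of at most 0.05 (1.49% JNKi-only, 2.13% low-ranked shared, 1.93% all shared, 6.45% DMSO-only). That of JNKi cJun overlap turned at this IDR (4.48% JNKi-only, 6.38% low-ranked shared, 4.59% all shared). The number of JNKi-only peaks was 3120 when summits had to lie within 200 bp, 67 with the JNKi list held to an IDR of 0.05 and 33 at 0.01. It was 1287 with both lists held to 0.05, since DMSO peaks are then removed too. With promoters limited to 1 kb, the shares were 11.5% promoter, 4.61% exon, 49.6% intron and 34.3% intergenic. JNKi-only peaks with an IDR of at most 0.05 were 34.3% promoter, 1.49% exon and 32.8% intron, and those with no DMSO peak within 1 kb were 21.1% promoter. The median percentile was 6.41 by the first replicate column and 8.38 by the second. When cJun peaks needed an IDR of 0.05 or less, the overlap was 0.645% in the JNKi and 1.11% in the DMSO list, and JNKi-only peaks with such an IDR had DMSO cJun at 2.99%. Within 50 bp of the summit the shares were 2.76% for AP-1, 3.41% for the GC box and 1.11% for the xenobiotic response element. Over whole peaks they were 16.04%, 15.2% and 5.81%, with 0.829% for the cyclic AMP response element, and the whole-peak CpG ratio was 0.307. At an IDR of at most 0.05, the shares were 1.49% for AP-1, 11.9% for the GC box and 0 for the cyclic AMP response element (0 of 67 peaks). With all gene types, 183 genes had a JNKi-only peak and no shared or DMSO-only one. Among the moved values, the cause was not tested beyond what each setting removes or widens. The width, higher-replicate summit, low-ranked-set and motif-by-IDR alternatives were chosen after seeing the data.

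No paired analysis was possible because replicate columns are unnumbered and a treatment has a single list. Runs without 1 replicate were not made, since every deposited peak rests on both.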
